A study of Saccharomyces cerevisiae with 22 samples.

Results

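Both control strains of a histone point-mutant series, hht2-wt and hhf2-wt, were set against the common wild-type reference RNA on 4 two-colour arrays, chosen by their titles from 22 arrays of 11 strains. Both control strains carry unmutated histones per their names, hht2-wt for histone H3 and hhf2-wt for histone H4, and each has 2 arrays from separate cultures, labelled a and b. The other 18 arrays hold 9 strains in which 1 residue of H4 (K44A, V81A, Y98A) or of H3 (L109A, N108A, R53A, G44A, R40A, Q5A) is replaced by alanine. The reference was wild-type RNA of 1 large culture, and each of the 22 arrays carries it beside the strain, in Cy5 on the a arrays and in Cy3 on the b arrays. The labels give the Saccharomyces cerevisiae strain BY4742 for both channels and name no selection marker, plasmid or further deletion for any strain, the controls included. All cultures were grown in synthetic complete medium with glucose in a plate reader. The question of the comparison is how far the controls' strain background departs from the wild type that serves as reference, and whether both controls depart alike.

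Haploid budding yeast exists as a cells and alpha cells. The MAT locus sets the type: the alpha alleles encode alpha1, which turns alpha-specific genes on, and alpha2, which represses a-specific genes, while cells with the a alleles express a-specific genes by default and leave alpha-specific genes silent. Copies of both sets of alleles lie silenced at HML and HMR. Laboratory strains also carry deleted biosynthetic genes, whose return on a plasmid or in the genome serves for selection, and histones H3 and H4 are each encoded by a pair of near-identical genes, HHT1 with HHT2 and HHF1 with HHF2.

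Values are log2 ratios of the strain channel over the reference channel after loess normalisation within the array, so they are relative to most genes on that array, and array values are given in the order a, b. The labels put each control strain in Cy3 on array a and in Cy5 on array b. The series' own design text gives the dyes of the first array the other way round, and the labels were followed, so every direction below rests on them. Each of 6388 gene probes was spotted 2 times, and a probe counts as called with a limma adjusted p below 0.05 over all probes. Errors are SE of the fitted mean over the 4 arrays. The reference was 1 culture on every array, so the SE and p-value leave out the reference culture's own spread, and any feature of that culture enters every ratio. The median spot signal of an array was 365 to 632 for the control strains and 369 to 534 for the reference. From 93 to 248 probes an array were not above background for the control strains, and 129 to 300 for the reference, and the small number of arrays limits the precision. Median ratios of the external control spots lay between -0.04 and 0.03 on the 4 arrays.

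Markers of mating type go against the label BY4742, a strain of mating type alpha, for the strain channel of the control arrays. With the labelled dyes, a-specific genes gave more signal in the strain channel and alpha-specific genes more in the reference channel on all 4 arrays. The controls are therefore called by their names below and not by that strain. Of 6388 probes, limma called 3956 between both controls and the reference, or 61.9%, with 2022 higher (31.7%) and 1934 lower (30.3%). Counts of higher and lower members in the gene lists below are to be read beside these shares. Most of these were small: the median absolute log2 ratio over all probes was 0.12, and the median SE was 0.034. At least 1.7-fold, 157 probes were higher, or 2.46% of all probes, and 34 were lower, or 0.532%. Past a log2 ratio of 2 in either direction there were 12 higher and 13 lower probes.

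The 7 a-specific genes were all higher in the control strains, with log2 ratios of 2.02 to 4.70. STE2, the receptor for alpha-factor, had 4.52 and 4.92 on the hht2-wt arrays and 4.41 and 4.96 on the hhf2-wt arrays. The mean was 4.70 ± 0.055, or 26.0-fold, with an adjusted p of 1.66e-17. All 4 values lay far above 0 and within 1 log2 unit of each other. The a-factor pheromone genes stood close to it. MFA2 had 4.19 and 4.55 in hht2-wt and 4.21 and 4.47 in hhf2-wt, with a mean of 4.35 ± 0.048. MFA1 had 4.08 and 4.39 in hht2-wt and 3.97 and 4.27 in hhf2-wt, with a mean of 4.18 ± 0.058. For both, each array b value exceeded each array a value, as for STE2, and the strain dye was Cy5 on b. AGA2, the binding subunit of the a-agglutinin, had a mean of 3.54 ± 0.094. BAR1, the protease that degrades alpha-factor, had a mean of 3.36 ± 0.078. STE6, the exporter of a-factor, followed with 2.88 ± 0.10, and ASG7, an a-specific regulator of pheromone signalling, with 2.02 ± 0.12. These last 4 differed among the 4 arrays by less than 0.4 each. Every one of these genes was above background on all 4 arrays in both channels.

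The 4 measured alpha-specific genes were all lower in the control strains. MF(ALPHA)1, the main gene of the alpha-factor precursor, had -5.63 and -5.23 on the hht2-wt arrays and -5.74 and -5.29 on the hhf2-wt arrays. Its mean of -5.47 ± 0.057 was the lowest of all 6388 probes, 44.4-fold below the reference (adjusted p 5.44e-18). MF(ALPHA)2, the minor alpha-factor gene, had -5.07 and -4.92 in hht2-wt and -5.20 and -4.87 in hhf2-wt. The receptor for a-factor, STE3, had -3.71 and -3.87 in hht2-wt and -3.92 and -3.76 in hhf2-wt, and SAG1, the alpha-agglutinin, had -3.42 and -3.18 in hht2-wt and -3.42 and -3.14 in hhf2-wt. No array of the 4 had a value above -3.14 for any of these genes. In a bulk culture, fewer cells of a type and less RNA per cell cannot be told apart.

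**Figure D1:**
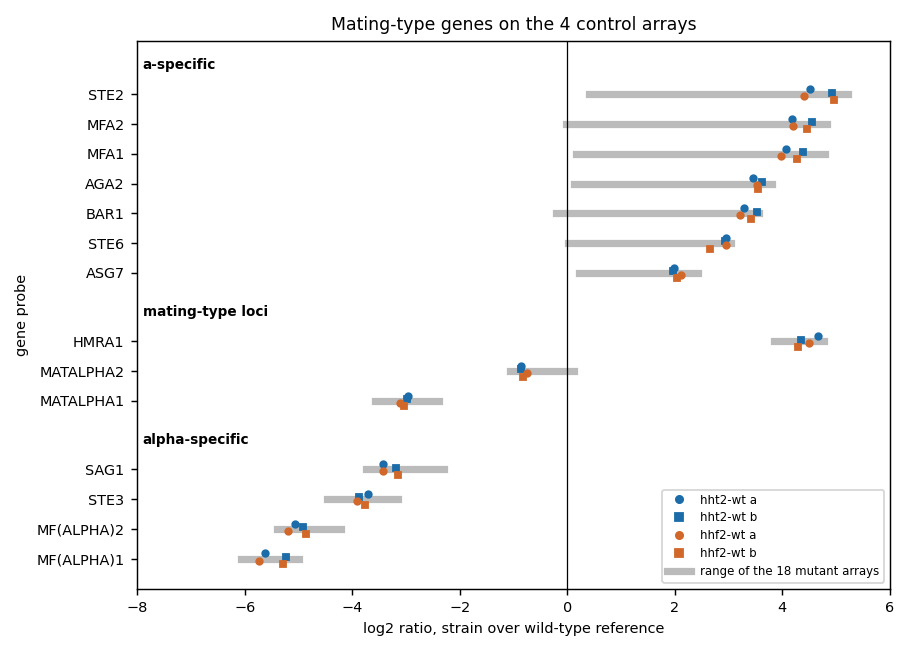
Log2 ratios of strain over reference (x axis) for 7 a-specific genes, 3 genes of the mating-type loci and 4 alpha-specific genes (rows); blue points are the hht2-wt arrays, orange points the hhf2-wt arrays, circles culture a and squares culture b, and grey bars span the 18 mutant arrays. The 4 control values of each gene lie together, from 4.70 on average for STE2 to -5.47 for MF(ALPHA)1, while the grey bars of the 7 a-specific genes reach down to near 0.

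Genes of the mating-type loci followed the same split. HMRA1, the a1 gene of the silent HMR locus, had 4.66 and 4.35 on the hht2-wt arrays and 4.51 and 4.29 on the hhf2-wt arrays, with a mean of 4.45 ± 0.10. Its sequence is shared with the a1 gene of MAT, so signal of the 2 loci cannot be told apart. MATALPHA1, the alpha1 activator gene, had -2.96 and -2.98 in hht2-wt and -3.11 and -3.03 in hhf2-wt, with a mean of -3.02 ± 0.061. MATALPHA2, the alpha2 repressor gene, was lower too, but only by 1.77-fold, with -0.86 and -0.87 in hht2-wt and -0.76 and -0.82 in hhf2-wt. Both share sequence with HML, and alpha2 shares part of its sequence also with the a2 genes. The part of such shared sequence in these values was not tested.

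Genes active in both haploid types differed little. Of 10 haploid-specific genes, 3 were higher, 3 lower and 4 not called, and the list median was -0.057, against -0.0080 over all probes. FUS3, the kinase of the pheromone pathway, had a log2 ratio of 0.39 ± 0.066 and STE4, the beta subunit of its G protein, 0.28 ± 0.050. RME1, a repressor of meiosis, was at -0.42 ± 0.084 and NEJ1, a haploid factor of DNA end joining, at -0.24 ± 0.045. All 4 ratios were under 1.5-fold. Genes that pheromone induces moved more often upwards: of 21, 12 were higher and 2 lower, with a median of 0.22. The shares over all probes were 31.7% higher and 30.3% lower. AGA1, the anchor of the a-agglutinin, had 1.08 and 1.29 on the hht2-wt arrays and 1.08 and 1.15 on the hhf2-wt arrays. FIG1, a membrane protein of mating cells, had 1.07 and 0.96 in hht2-wt and 0.93 and 1.04 in hhf2-wt. PRM2 and PRM6, pheromone-regulated membrane proteins, had means of 0.79 ± 0.088 and 0.79 ± 0.12. For these 4 genes the 4 arrays did not overlap 0, and each was at least 1.7-fold higher.

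Marker genes showed gains and losses that held on every control array. URA3, which encodes the last enzyme of pyrimidine synthesis before UMP, had 3.97 and 4.16 on the hht2-wt arrays and 3.94 and 4.14 on the hhf2-wt arrays, a mean of 4.05 ± 0.057 or 16.6-fold. HIS3, of histidine synthesis, had 1.45 and 1.57 in hht2-wt and 1.49 and 1.41 in hhf2-wt, with a mean of 1.48 ± 0.071. MET17, CAN1 and TRP1 were lower. MET17, which incorporates sulphide into homocysteine, had -4.56 and -4.59 on the hht2-wt arrays and -4.69 and -4.65 on the hhf2-wt arrays, with a mean of -4.62 ± 0.065. CAN1, the arginine permease, had -3.44 and -3.58 in hht2-wt and -3.59 and -3.62 in hhf2-wt, and TRP1, of tryptophan synthesis, -3.09 and -3.20 in hht2-wt and -3.34 and -3.31 in hhf2-wt. In each of these 5 genes the spread between the 4 arrays was under 0.3, while the ratio itself was at least 2.79-fold. The other 3 markers differed little. LEU2, of leucine synthesis, was not called (-0.036 ± 0.022, adjusted p 0.163), and its signal was above background on 1 of 4 arrays in the strain channel and on 0 of 4 in the reference channel. LYS2, of lysine synthesis, stood at -0.078 ± 0.028 and ADE2, of purine synthesis, at 0.076 ± 0.023.

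Near the markers and the histone gene pairs, 36 neighbouring probes were examined, 2 on each side of 9 loci. Of these 22 were called, 12 higher and 10 lower, which is near the 61.9% of all probes. Both direct neighbours of HIS3 were lower. DED1, an RNA helicase of translation initiation, had -0.65 and -0.62 on the hht2-wt arrays and -0.57 and -0.72 on the hhf2-wt arrays, and MRM1, a mitochondrial ribosomal RNA methyltransferase, had -0.68 and -0.51 in hht2-wt and -0.55 and -0.53 in hhf2-wt. The next genes outwards, BFR1 and GEP3, had means of -0.17 ± 0.044 and 0.094 ± 0.029, both within 1.2-fold of the reference. The probe of YCL021W-A, on the lower-coordinate side of LEU2, was the 1 neighbour past 1.7-fold, with 0.99 and 0.88 in hht2-wt and 0.93 and 0.95 in hhf2-wt. Beside URA3, YEL023C had 0.47 ± 0.022 and the nearer GEA2 0.016 ± 0.050. TKL2, a transketolase isozyme beside LYS2, had 0.48 ± 0.025, and SIW14 beside HHT2-HHF2 had 0.38 ± 0.039. Genes beside MET17, TRP1 and CAN1 lay between -0.27 and 0.27, although the markers themselves were at -4.62, -3.24 and -3.56.

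All 4 genes of H3 and H4 were lower in the controls, and all 4 genes of H2A and H2B were higher. HHT2 had -2.03 and -2.21 on the hht2-wt arrays and -2.04 and -2.35 on the hhf2-wt arrays, with a mean of -2.16 ± 0.070 or 4.46-fold lower. Its near-identical copy HHT1 had -1.21 and -1.18 in hht2-wt and -1.22 and -1.27 in hhf2-wt. For H4, HHF2 had -0.78 and -0.76 in hht2-wt and -0.85 and -0.96 in hhf2-wt, and HHF1 had -0.73 and -0.62 in hht2-wt and -0.79 and -0.64 in hhf2-wt. No array had a value above -0.61 for any of them. Since the copies are nearly identical, signal of one gene of a pair may include the other, and the part of this was not tested. HTA2, of H2A, had 0.81 and 0.72 on the hht2-wt arrays and 0.86 and 0.88 on the hhf2-wt arrays, with a mean of 0.82 ± 0.027. HTA1 stood at 0.73 ± 0.027, and the H2B genes HTB1 and HTB2 at 0.71 ± 0.034 and 0.65 ± 0.038. These 4 genes were above 0.5 on each of the 4 arrays, though only HTA2 passed 1.7-fold. CSE4, the centromeric H3 variant, had 0.38 ± 0.029. HTZ1, the H2A variant, and HHO1, the linker histone, were slightly lower, at -0.11 ± 0.042 and -0.12 ± 0.040.

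**Figure D2:**
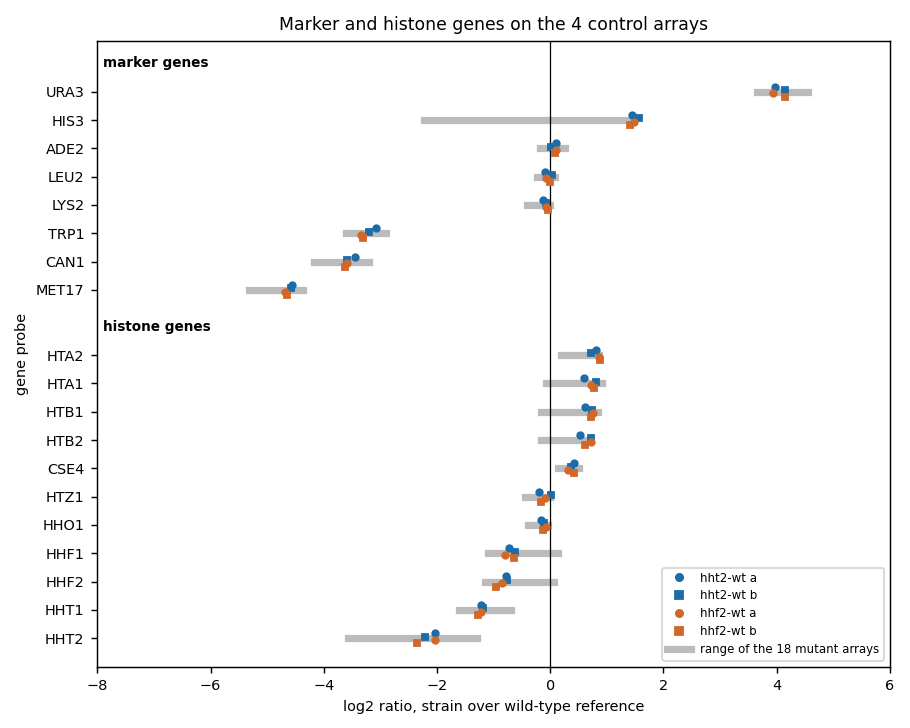
Log2 ratios of strain over reference (x axis) for 8 marker genes and 11 histone genes (rows); blue points are the hht2-wt arrays, orange points the hhf2-wt arrays, circles culture a and squares culture b, and grey bars span the 18 mutant arrays. URA3 and HIS3 lie right of 0 and TRP1, CAN1 and MET17 far left, while the H2A and H2B genes sit between 0.5 and 0.9 and the H3 and H4 genes below -0.61.

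Histone chaperones and silencing factors were examined next to the histones. Of 24 probes, 7 were higher and 6 lower, with a median of 0.018. ASF1, which hands over H3-H4, had 0.58 and 0.59 on the hht2-wt arrays and 0.80 and 0.46 on the hhf2-wt arrays. POB3, a subunit of the FACT complex, RLF2, of chromatin assembly factor 1, and RTT106, another H3-H4 chaperone, had means of 0.29 ± 0.027, 0.28 ± 0.029 and 0.28 ± 0.028. ASF1 was thus the member farthest from 0, at 1.52-fold.

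Pathways of the marker genes differed from each other. Pyrimidine synthesis had 4 of 12 genes higher and 6 lower. URA1, dihydroorotate dehydrogenase, had -2.17 and -2.08 on the hht2-wt arrays and -2.14 and -2.08 on the hhf2-wt arrays. URA4, dihydroorotase, had -1.26 and -1.32 in hht2-wt and -1.17 and -1.26 in hhf2-wt, and FUI1, the uridine permease, -0.92 and -0.76 in hht2-wt and -0.82 and -0.75 in hhf2-wt. These 3 genes were lower by at least 1.7-fold on average while URA3 was 16.6-fold higher. URA8, a CTP synthase, was the highest of the others at 0.38 ± 0.028. Arginine genes showed the highest median of the 33 lists beside the key lists above, at 0.82, with 6 of 9 genes higher and 2 lower. ARG3, ornithine carbamoyltransferase, had 2.20 and 2.21 on the hht2-wt arrays and 2.18 and 2.22 on the hhf2-wt arrays. ARG1, argininosuccinate synthetase, had a mean of 1.98 ± 0.084, and CPA1, of carbamoyl phosphate synthesis, one of 1.97 ± 0.045. The probe of YOR302W, the gene next to CPA1 in RefSeq, had 2.17 and 2.27 in hht2-wt and 2.16 and 2.22 in hhf2-wt. The arginine-degrading enzyme CAR2, ornithine transaminase, went the other way, with -1.45 and -1.36 in hht2-wt and -1.37 and -1.44 in hhf2-wt. CPA1, ARG1 and ARG3 thus stood 3.93-fold to 4.61-fold above the reference and CAR2 2.65-fold below it. The other synthesis genes moved less, with ARG8 at 1.10 ± 0.039, ARG4 at 0.82 ± 0.050 and ARG7 at 0.62 ± 0.043, and ARG2 was not called (-0.053 ± 0.027, adjusted p 0.111). CAR1, arginase, was lower at -0.76 ± 0.067.

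Other amino acid pathways changed less. In methionine and sulphur assimilation 6 of 28 genes were higher and 10 lower, although MET17 belongs to that pathway. MET3, ATP sulphurylase, had 0.49 ± 0.048 and MET10, of sulphite reductase, 0.43 ± 0.039. MMP1, the S-methylmethionine permease, was at -0.38 ± 0.043, and MET16, PAPS reductase, at 0.32 ± 0.027. For histidine, 0 of 7 genes were higher and 4 lower, with HIS4 lowest at -0.22 ± 0.039. HIS2 and HIS6, of the same pathway, had -0.17 ± 0.031 and -0.13 ± 0.032, and HIP1, the histidine permease, -0.082 ± 0.034. Of 16 genes of tryptophan and aromatic synthesis, 7 were higher and 5 lower. Their 4 largest ratios were those of ARO9, ARO3, PHA2 and ARO8, at 0.26, 0.26, -0.25 and 0.21, none past 1.2-fold although TRP1 was 9.42-fold lower. Lysine genes had 5 of 9 higher and 1 lower. LYS20, homocitrate synthase, was at 0.48 ± 0.042, LYS1 at 0.47 ± 0.039 and LYS4 at 0.31 ± 0.027, while LYS14, the activator of the pathway, was at -0.33 ± 0.048. In leucine and branched-chain synthesis 5 of 14 genes were higher and 3 lower. LEU4, isopropylmalate synthase, had 0.41 ± 0.042, BAT1, a branched-chain transaminase, 0.33 ± 0.042, LEU1 0.27 ± 0.036 and the permease BAP2 0.25 ± 0.059.

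Serine and one-carbon genes held 1 large change. SER3, which starts serine synthesis as 3-phosphoglycerate dehydrogenase, had 2.39 and 2.11 on the hht2-wt arrays and 2.05 and 2.18 on the hhf2-wt arrays. Its mean was 2.19 ± 0.068, or 4.55-fold higher. GCV2, of the glycine cleavage system, followed at 0.49 ± 0.040, while CHA1, the serine deaminase, and SHM1, a hydroxymethyltransferase, were at -0.21 ± 0.060 and -0.20 ± 0.054. Over the list 5 of 14 genes were higher and 5 lower. Purine synthesis stood out through the IMP dehydrogenase genes of GTP synthesis, which are near copies of each other. IMD2 had 1.15 and 0.82 in hht2-wt and 1.11 and 1.02 in hhf2-wt, IMD3 a mean of 0.76 ± 0.032 and IMD4 one of 0.67 ± 0.028. ADE1 had 0.26 ± 0.043, and in all 5 of 12 genes were higher and 2 lower. Among genes that the Sum1 repressor and the Hst1 deacetylase hold down, BNA2, which opens the path from tryptophan to NAD, had 1.28 and 1.20 on the hht2-wt arrays and 1.28 and 1.22 on the hhf2-wt arrays. BNA1 and BNA4 of the same path were at 0.87 ± 0.039 and 0.46 ± 0.040, and BNA6 at -0.17 ± 0.032. All 7 genes of that list were called, 3 higher and 4 lower.

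Several large single differences fell outside the marker pathways. NCE103, carbonic anhydrase, was higher with 1.92 and 1.87 on the hht2-wt arrays and 1.97 and 2.05 on the hhf2-wt arrays. RIB4, of riboflavin synthesis, was lower with -2.11 and -1.94 on the hht2-wt arrays and -1.97 and -2.04 on the hhf2-wt arrays. MDH2, the cytosolic malate dehydrogenase, had -1.59 and -1.44 in hht2-wt and -1.41 and -1.76 in hhf2-wt. PDR5, a drug efflux pump, had -1.55 and -1.58 in hht2-wt and -1.22 and -1.58 in hhf2-wt. For RIB4, MDH2 and PDR5 the 4 arrays spread by less than 0.4 around mean ratios of 2.80-fold to 4.04-fold. YJR154W was higher at 1.42 ± 0.061 and YLR297W lower at -1.14 ± 0.073, and no function is given for either here.

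Iron genes were mostly lower, while the phosphate, copper and zinc lists held about as many higher as lower genes. Of 20 iron regulon genes 1 was higher and 14 lower, with a median of -0.23, against 31.7% higher and 30.3% lower over all probes. FIT3, a cell wall mannoprotein that retains siderophore iron, had -1.73 and -1.54 on the hht2-wt arrays and -1.77 and -1.62 on the hhf2-wt arrays, and FIT2, of the same family, -1.30 and -1.16 in hht2-wt and -1.23 and -1.31 in hhf2-wt. ARN2, a siderophore transporter, had a mean of -0.75 ± 0.040 and TIS11, which destabilises mRNA in iron shortage, one of -0.58 ± 0.043. Not all members moved: SIT1, another siderophore transporter, was not called (0.026 ± 0.064, adjusted p 0.738). PHO84, the high-affinity phosphate transporter, had -1.38 and -1.34 in hht2-wt and -1.40 and -1.25 in hhf2-wt, and the phosphate list had 4 of 16 higher and 4 lower. PHO12, an acid phosphatase, and PHM8 were at 0.44 ± 0.044 and 0.43 ± 0.073, and PHO81, an inhibitor in the pathway, at -0.32 ± 0.053. Copper genes had 4 of 11 higher and 4 lower. CTR3 and CTR1, plasma membrane copper transporters, had 0.85 ± 0.046 and 0.35 ± 0.066, the reductase FRE7 0.51 ± 0.074, and CTR2, the vacuolar transporter, -0.36 ± 0.067. The zinc regulon had 3 of 11 higher and 4 lower, with ZRT1 at 0.26 ± 0.10, ADH4 at 0.26 ± 0.037, ZAP1 at -0.21 ± 0.041 and ZRT2 at -0.16 ± 0.034.

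Nuclear genes of oxidative phosphorylation were higher as a group. Of 40 genes, 33 were higher and 1 lower, and the median was 0.31, against -0.0080 over all probes. CYC1, iso-1-cytochrome c, had 0.79 and 0.66 on the hht2-wt arrays and 0.79 and 0.80 on the hhf2-wt arrays. QCR6 and QCR2, subunits of complex III, had means of 0.57 ± 0.049 and 0.53 ± 0.045, and ATP3, of the ATP synthase, 0.55 ± 0.052. No member reached 1.7-fold. In the tricarboxylic acid and glyoxylate cycle 9 of 21 were higher and 5 lower: CIT1, citrate synthase, was at 0.44 ± 0.044, while IDH2 and ACO1 were at -0.33 ± 0.037 and -0.24 ± 0.036. Hexose genes were lower more often, with 2 of 19 higher and 10 lower, against 31.7% and 30.3% of all probes. HXK2, the main hexokinase, had -0.65 and -0.60 in hht2-wt and -0.65 and -0.58 in hhf2-wt. GLK1, glucokinase, had 0.44 ± 0.080, and the transporters HXT8 and HXT1 had -0.38 ± 0.053 and -0.34 ± 0.050. Of 7 galactose genes 0 were higher and 3 lower: GAL80 at -0.45 ± 0.028, GAL2 at -0.21 ± 0.032 and GAL1 at -0.072 ± 0.028. GAL1 was above background on 1 of 4 arrays in the strain channel and on 0 of 4 in the reference channel. Among 8 maltose and alternative sugar probes 2 were higher (SUC2 at 0.17, MAL33 at 0.098) and 2 lower (MAL31 at -0.17, MAL13 at -0.15).

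Ribosome biogenesis genes were higher in 37 of 57 cases and lower in 5, with a median of 0.16. EBP2, an assembly factor of the large ribosomal subunit, had 0.87 and 0.82 on the hht2-wt arrays and 0.89 and 0.88 on the hhf2-wt arrays and was the 1 member past 1.7-fold. The RNA helicase DBP2 had a mean of 0.63 ± 0.055, and MAK16 and NOP15, of the same assembly path, had 0.59 ± 0.057 and 0.57 ± 0.036. Of 127 probes of cytosolic ribosomal proteins 19 were higher and 45 lower, with a median of -0.031. Over all probes 31.7% were higher and 30.3% lower. The share of lower ribosomal protein probes was thus near that of all probes, but the share of higher ones was smaller. RPS25B, RPL4A, RPS30A and RPL33B were the farthest from 0, at -0.35, -0.33, -0.32 and -0.31. Most such genes have a near-identical paralogue, and the probes' part in each was not tested. Mitochondrial ribosomal proteins were even, at 21 higher and 24 lower of 66, and the 4 largest ratios, of MRPL16, MRPS17, MRP8 and MRPS16, ran from 0.35 to 0.43.

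**Figure D3:**
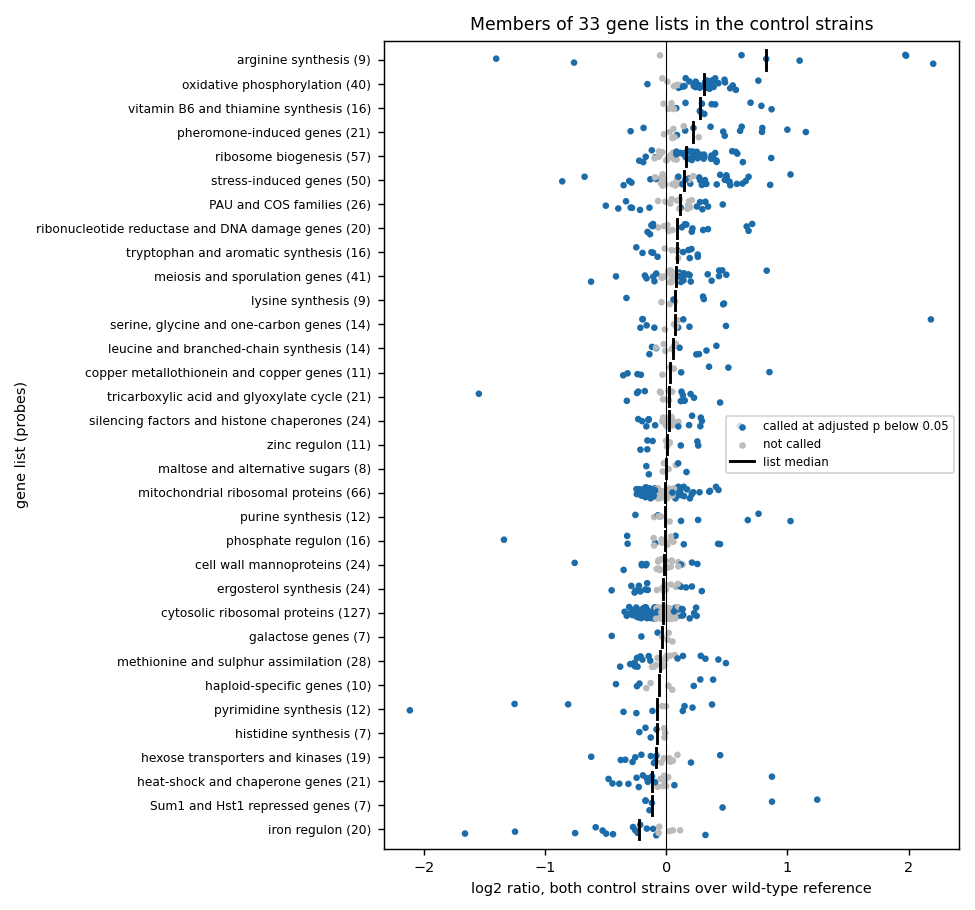
Log2 ratios of both control strains over the reference (x axis) for the members of 33 gene lists (rows, with the number of probes); blue points were called at an adjusted p below 0.05, grey points were not, and black bars are list medians. Arginine synthesis has the highest median at 0.82 and the iron regulon the lowest at -0.23, while most medians lie close to 0.

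Stress genes were mixed. Of 50 stress-induced genes 25 were higher and 7 lower, with a median of 0.15, against 31.7% higher and 30.3% lower over all probes. HSP12, a small membrane chaperone, had 0.91 and 0.92 on the hht2-wt arrays and 1.21 and 1.06 on the hhf2-wt arrays, and HOR7 and DDR48 had means of 0.86 ± 0.061 and 0.68 ± 0.083. HSP78, a mitochondrial chaperone, was lower with -0.65 and -0.96 in hht2-wt and -1.04 and -0.80 in hhf2-wt. Heat-shock and chaperone genes were lower more often, 12 of 21 against 2 higher. The mitochondrial chaperonins HSP60 and HSP10 were at -0.48 ± 0.052 and -0.45 ± 0.049 and HSP30 at -0.39 ± 0.042, whereas SSA4, an inducible Hsp70, was at 0.87 ± 0.071. Among 20 genes of ribonucleotide reductase and the DNA damage response 10 were higher and 5 lower, with RNR3 at 0.71 ± 0.054, HUG1 at 0.66 ± 0.15 and RAD16 at 0.34 ± 0.036.

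The vitamin B6 and thiamine list had 11 of 16 probes higher and 0 lower, with a median of 0.28. Among all probes 31.7% were higher and 30.3% lower. PHO3, a thiamine-repressed acid phosphatase, had 2 probes, with means of 0.87 ± 0.063 and 0.78 ± 0.087, SNZ1 of vitamin B6 synthesis had 0.70 ± 0.067 and THI4 0.40 ± 0.044. Of 41 meiosis and sporulation genes 18 were higher and 7 lower. HOP1, of the meiotic chromosome axis, had 0.89 and 0.74 in hht2-wt and 0.79 and 0.89 in hhf2-wt, DMC1, the meiotic recombinase, a mean of 0.50 ± 0.037 and SPO21 0.46 ± 0.032. IME1, the inducer of meiosis, was lower with -0.54 and -0.57 in hht2-wt and -0.72 and -0.66 in hhf2-wt. Ergosterol synthesis had 5 of 24 higher and 10 lower, with ERG11 at -0.45, ERG20 at 0.29, ERG3 at -0.29 and ERG28 at -0.26. Cell wall mannoproteins had 3 of 24 higher and 6 lower. TIP1 had -0.77 and -0.71 in hht2-wt and -0.75 and -0.79 in hhf2-wt, and SPI1, CWP1 and FLO11 had means of -0.35, 0.26 and 0.21. In the subtelomeric PAU and COS families, whose members are near copies, 7 of 26 were higher (PAU7 at 0.47, PAU23 at 0.34) and 7 lower (COS8 at -0.50, COS7 at -0.40).

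Several genes with systematic names only were among the highest named probes. YDR210C-C had 1.48 and 1.99 on the hht2-wt arrays and 2.05 and 1.11 on the hhf2-wt arrays. YPR158W-A had 1.31 and 1.93 in hht2-wt and 1.80 and 1.11 in hhf2-wt, and the first of 2 probes of YMR046C had 1.41 and 1.80 in hht2-wt and 1.92 and 0.98 in hhf2-wt. In all 3, hht2-wt b and hhf2-wt a were high and hhf2-wt b low, and the arrays of 1 strain differed by up to 0.94, while the strains differed by 0.16 ± 0.31 for YDR210C-C. The second YMR046C probe disagreed in size, with a mean of 0.29 ± 0.051. RefSeq gives all 3 genes the same length. YDR170W-A and YNL284C-A, also of that length, had the same pattern. YDR170W-A had 1.40 and 1.56 in hht2-wt and 1.92 and 0.66 in hhf2-wt. YNL284C-A had 1.03 and 1.32 in hht2-wt and 1.39 and 0.55 in hhf2-wt. Other genes of that length did not, such as UTP6 at 0.23 and RRI1 at -0.096. Whether the probes share sequence was not tested, so these genes may not be separate responses. Of the 157 probes at least 1.7-fold higher, 81 carry no gene name here. Their median ratios were 1.24 and 1.31 on the hht2-wt arrays and 1.33 and 1.10 on the hhf2-wt arrays. What these 81 probes measure was not determined. On the lower side 5 of 34 probes had no name.

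No whole chromosome was shifted by a large amount. Median ratios of the 16 nuclear chromosomes ran from -0.035 for chromosome I, with 83 probes, to 0.039 for chromosome VI, with 112 probes, against -0.0080 for all probes. On the 4 arrays chromosome VI had medians of 0.043, 0.047, 0.064 and 0.012. Chromosome XIV, with 358 probes, had a median of -0.025. The 19 mitochondrial probes varied more, with 0.048 and -0.0077 on the hht2-wt arrays and 0.15 and 0.073 on the hhf2-wt arrays.

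Between hht2-wt and hhf2-wt, where the reference cancels, limma called 0 of 6388 probes, or 0%. At an unadjusted p below 0.05 there were 70 probes, fewer than that threshold would pass by chance on average. Under each alternative that could be run the called count was also 0. The SD of the differences over all probes was 0.058, below their median SE of 0.068. Arrays of the same control strain correlated at 0.91, and arrays of different control strains at 0.93 to 0.95. The fitted SE was thus large for this contrast, and 0 calls does not show that the strains are alike. Fitted against the reference alone, hht2-wt had 3026 called probes (47.4%) and hhf2-wt 3111 (48.7%), and these comparisons share the reference. The absolute log2 difference between the strains was 0.034 at the median, 0.12 at the 95th percentile and 0.17 at the 99th. The 95% interval of a difference, not adjusted for the number of probes, had a median half-width of 0.15 over all probes. For STE2 the difference was 0.031 ± 0.11, with an interval of -0.20 to 0.27, for HHT2 0.076 ± 0.14, with -0.22 to 0.37, and for HHF2 0.13 ± 0.10, with -0.081 to 0.35. URA3 had 0.019 ± 0.11 (-0.23 to 0.27) and MET17 0.098 ± 0.13 (-0.18 to 0.38). No difference between the strains passed the test for a histone, marker or mating gene. The 5 widest differences towards hht2-wt were those of unnamed probes. SCAB000653 had -0.38 and -0.043 in hht2-wt and -0.96 and -0.48 in hhf2-wt, a difference of 0.51 ± 0.20. Other unnamed probes, SCAB000983, SCAB002395, SCAB004558 and SCAB004204, had differences of 0.39, 0.37, 0.34 and 0.33. For SCAB004204 1 array, hht2-wt a at 0.85, stood far above the other 3, which lay between 0.17 and 0.24. On the other side the mitochondrial intron reading frame AI1 had -0.16 and -0.40 in hht2-wt and 0.21 and 0.053 in hhf2-wt, a difference of -0.41 ± 0.14. YIG1, PCL5, SKY1 and the mitochondrial ATP8 had differences of -0.29, -0.26, -0.25 and -0.23. These 10 probes were named because their differences were the widest, and each had an adjusted p of 1.

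**Figure D4:**
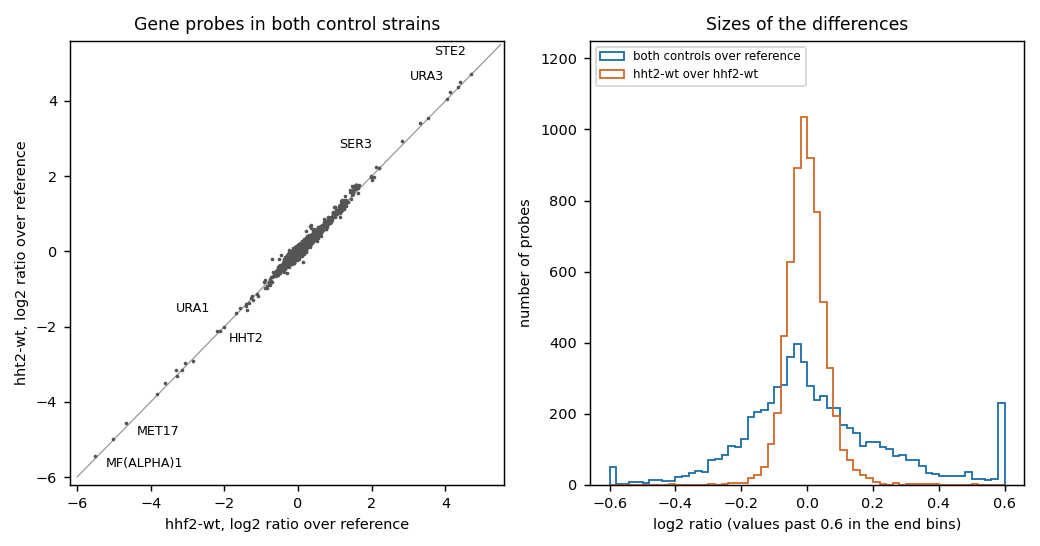
Left, fitted log2 ratio over the reference of each of 6388 probes in hht2-wt (y axis) against hhf2-wt (x axis), with the line of equality; right, the number of probes by log2 ratio of both controls over the reference (blue) and of hht2-wt over hhf2-wt (orange), with more extreme ratios in the end bins. Points from MF(ALPHA)1 to STE2 lie on the line, and the orange distribution is far narrower than the blue one, with 99% of its absolute values below 0.17.

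Set against the mean of the 9 point mutants, the controls were higher for 753 probes (11.8%) and lower for 1012 (15.8%). With median centring in place of loess the split was 310 higher and 668 lower. The control titles carry the number 1, as do those of R53A, L109A and Y98A, and the other 6 mutants carry 2; the labels do not say what the number means. Against those 3 mutants alone, 304 probes were higher and 323 lower in the controls. Few differences were large, with 2 probes higher and 7 lower by 1.7-fold or more against the 9 mutants. The 4 genes of H2A and H2B were higher in the controls than in the mean of the 9 mutants. L109A lay above both controls for HTA1, HTB1 and HTB2, at 0.83, 0.78 and 0.68. K44A and V81A were the lowest mutants for all 4 genes, at -0.081 to 0.26. HTA1 was at 0.71 in hht2-wt and 0.75 in hhf2-wt, against -0.0060 to 0.83 in the mutants, a difference of 0.24 ± 0.030. HTB1, HTA2 and HTB2 differed by 0.28 ± 0.037, 0.22 ± 0.030 and 0.28 ± 0.043, but against the 3 mutants of title number 1 none of the 4 was called, with adjusted p of 0.107 to 0.179. HHT2, HHF2, HHT1 and HHF1 were not called, at 0.021 ± 0.077, -0.15 ± 0.055, -0.048 ± 0.065 and -0.012 ± 0.058. Against the 3 mutants of title number 1, HHT2 was higher in the controls by 0.32 ± 0.090, with R53A at -3.51, the lowest of the 11 strains. Without Y98A, HHF2 was lower in the controls by a log2 difference of -0.20 ± 0.056.

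The a-specific genes, 7 of 7, were also higher in the controls than the mutant mean, with a median difference of 0.55. Without Y98A, in which the median of the 7 genes was 0.15, against 3.54 in hht2-wt and 3.53 in hhf2-wt, 1 of 7 was called, BAR1 at 0.26 ± 0.088. V81A had a median of 1.95, and the other 7 mutants had 3.18 to 3.63. HIS3 was at 1.51 in hht2-wt and 1.45 in hhf2-wt, against -2.10 in Y98A, 0.21 in V81A and 1.11 to 1.42 in the other mutants. The difference of 0.68 ± 0.078 over the 9 mutants was 0.32 ± 0.079 without Y98A and 1.28 ± 0.092 against the 3 mutants of title number 1. HO, the mating-type switching endonuclease, differed by 0.74 ± 0.098, and by 0.43 ± 0.099 without Y98A. Its level was -3.40 in Y98A and -1.42 in V81A, against -0.91 to -0.19 in the other 7 mutants. The alpha-specific genes were low in every strain, with strain medians of -4.39 in hht2-wt and -4.43 in hhf2-wt, against -4.69 to -4.05 in the mutants. Haploid-specific genes were higher in the controls for 9 of 10, and for 6 of 10 without Y98A. Over all 6388 probes, 753 were higher, and 738 without Y98A. The median of the haploid-specific genes was -2.37 in Y98A and -1.32 in V81A. The other 7 mutants had -0.069 to 0.003, against -0.059 in hht2-wt and -0.033 in hhf2-wt.

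Among the genes highest in the controls relative to the mutants, CUP1-2, a copper metallothionein in a repeated array of copies, was near the reference in the controls, at 0.11 and -0.093 in hht2-wt and 0.054 and 0.18 in hhf2-wt. The 9 mutants had -1.45 to -0.020, and the difference was 0.84 ± 0.074. The unnamed probe SCAB002687 had nearly the same values, with a difference of 0.85 ± 0.076. BAR1 differed by 0.62 ± 0.087. Lowest in the controls was SNZ1, at 0.69 in hht2-wt and 0.70 in hhf2-wt, against 0.45 to 2.72 in the mutants, a difference of -1.15 ± 0.074. Its partner gene SNO1 differed by -1.07 ± 0.065. L109A had the 1 mutant value below both controls for each of these genes. HSP78 and TIP1 were lowest in the controls, with -0.80 and -0.74 in hht2-wt and -0.92 and -0.77 in hhf2-wt, below all 9 mutants at -0.58 to 1.31 and -0.55 to 0.79. HPF1, a cell wall mannoprotein, differed by -0.89 ± 0.081. All 5 were also lower against the mean of the 3 mutants of title number 1, by 0.51 to 0.99 on the log2 scale. For SNZ1, SNO1 and HPF1 that mean was raised mostly by Y98A, at 2.72, 2.76 and 2.38. R53A had 0.98, 0.65 and 0.61 for these genes, and L109A 0.45, 0.069 and 0.70. Over all 6388 probes, 1012 were lower in the controls against the 9 mutants and 323 against the 3 of title number 1. The list counts that follow stand beside this drop. Of 50 stress-induced genes 28 were lower in the controls and 0 higher, and 6 were lower against those 3 mutants. For heat-shock and chaperone genes the counts were 14 of 21 and 1 of 21. In the PAU and COS families 15 of 26 were lower over the 9 mutants and 7 of 26 over the 3.

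**Figure D5:**
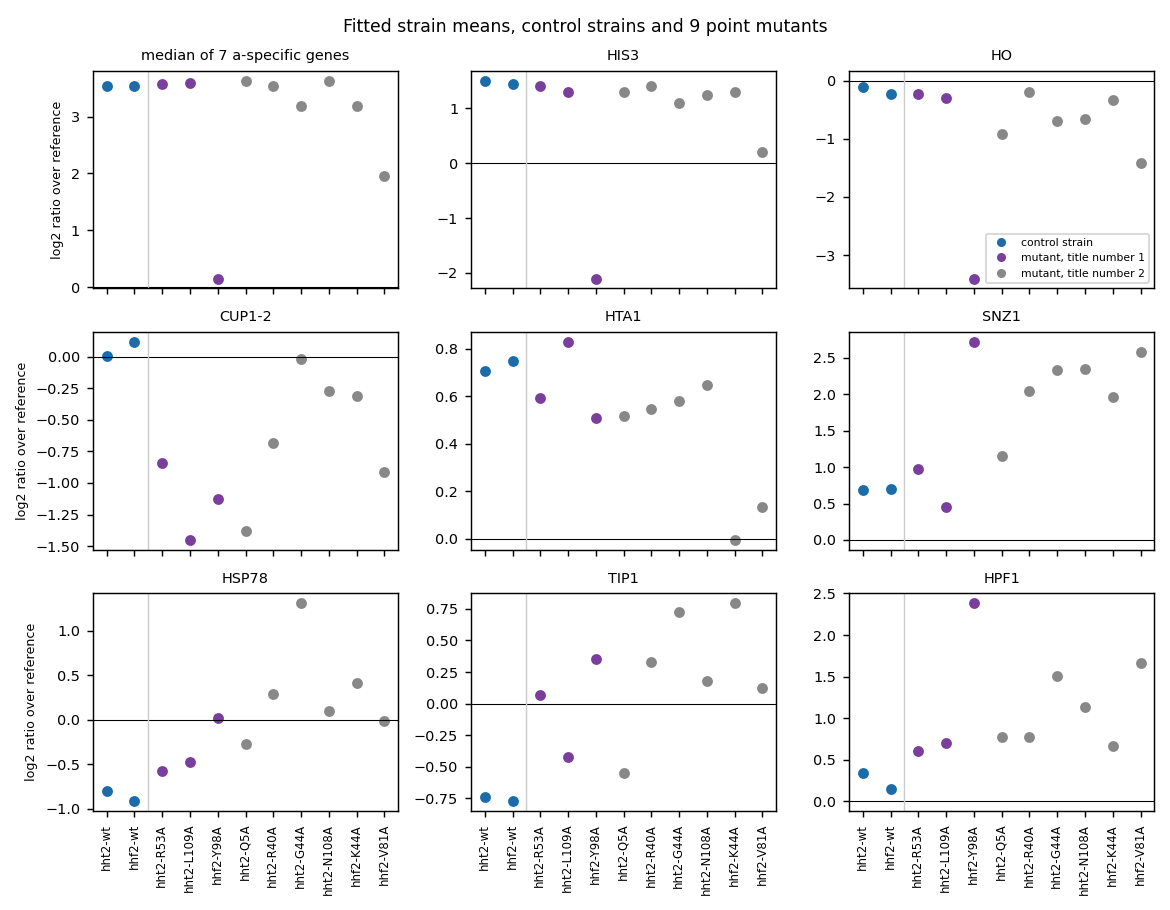
Fitted log2 ratio over the reference (y axis) for the control strains (blue, left of the line), the 3 mutants whose titles carry 1 (purple) and the 6 whose titles carry 2 (grey), for the median of 7 a-specific genes and 8 single genes, each panel on its own scale. Y98A stands far below the controls for the a-specific median, HIS3 and HO, while the controls are lowest of the strains for HSP78, TIP1 and HPF1.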

How the data were processed

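The 22 two-colour arrays were analysed from the deposited scanner files, which give spot and local background intensity for both channels, per the file headers. From these, normexp background correction with an offset of 50, loess within each array, and averaging of the 2 spots of a probe gave log2 ratios of strain over reference (R 4.3.3, limma 3.58.1). One model over all 22 arrays held a mean per strain and a term for the strain's dye, which is also the culture letter, and left 10 residual degrees of freedom. P-values were adjusted by Benjamini-Hochberg over all 6388 gene probes. Replicates are separate cultures per the labels. Deviations of same-letter arrays correlated above 0.1 in 52 of 55 strain pairs (median 0.39). Between hht2-wt and hhf2-wt the correlation was -0.12, the lowest of the 55. The letters were not taken to pair cultures, but the dye term fits them as a shared effect in all strains, the controls included. A spot was above background past 2.6 SDs of its background.

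The authors' deposited log2 ratios per array came from their own normalisation, named as limma 2.12.0 in the submitters' processing notes. They served as an alternative. Their medians on the 4 control arrays were -0.0042, 0.0047, -0.0012 and 0.0057. Set against the scanner values they correlated at 0.964 and 0.989 for hht2-wt and at -0.985 and 0.982 for hhf2-wt, so the column of hhf2-wt a runs the other way and was turned. Their scale is log2 and they are centred near 0, but no source used here states their direction. The authors' deposited table of log2 fold changes and p-values between strains was not used.

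Names came from the platform annotation, updated by RefSeq: 5326 probes had 1 name, 58 of these through a synonym, and 1062 had none. Genes named in the text were all members of the mating, marker and histone lists, the 20 highest and the 20 lowest named probes, up to 4 called members of each other list, 2 neighbours on each side of 9 loci, and the 5 most extreme probes in each direction of the other contrasts. The second YMR046C probe and ARG2, ARG4, ARG7, ARG8, CAR1, YDR170W-A, YNL284C-A, UTP6 and RRI1 were added after their values were seen. The control strains, the lists and the tests were chosen with earlier results of these data known.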

Additional observations from a re-analysis of the deposited data

How the results depend on the processing

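With the 4 control arrays fitted alone, 2479 probes were called for both controls over the reference, 1154 for hht2-wt, 1232 for hhf2-wt and 13 of the 36 neighbours, and that fit has fewer arrays to estimate the spread. Leaving out 1 control array at a time gave 3399 to 3470 calls for both controls, 1939 to 3038 for hht2-wt and 2037 to 3109 for hhf2-wt. The lowest were 1939 without hht2-wt b and 2037 without hhf2-wt b, where the lone array of the strain is assumed to vary like the other strains. Neighbours called ran from 17 to 19, probes at least 1.7-fold higher from 150 to 159 and those lower from 34 to 37. Between hht2-wt and hhf2-wt the called count was 0 under every alternative, with 15 to 190 probes at an unadjusted p below 0.05. These counts too were below what that threshold would pass by chance on average.

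Without the replicate block, which is the dye term, the counts were 3334 for both controls, 2321 for hht2-wt, 2378 for hhf2-wt, 0 between them and 1109 against the mutants. A crossed pairing of the 4 control arrays, added after seeing the data, gave 3218, 2190, 2240 and 0. Against the 9 mutants, median centring gave 978 and the 3 mutants of title number 1 gave 627, a subset also chosen after seeing the data, and leaving out a control array 1214 to 1426. Over all probes the median ratio was -0.042 with median centring and -0.0080 with loess. The largest absolute chromosome median was 0.0643 with median centring and 0.0389 with loess.

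Sign changes of single genes were counted only where the main fit or the alternative called the gene. In the authors' deposited values these were HIP1 at 0.01, KTR5 at -0.01 and CRZ1 at 0.07. With print-tip loess they were FLR1 at -0.07 and KTR5 at -0.02, and with median centring TEF2 at -0.20. Without Y98A the controls' difference from the mutants was -0.02 for MFA1, -0.03 for MFA2 and 0 for STE18. The cause was not tested. Counted for each named gene and each alternative, 2544 values over the reference kept their call, 117 lost it and 8 gained it. Those 2544 include values called in neither fit, whatever their sign. The files used give no slide or scan, so that block was not run. Dim probes limit LEU2, whose signal lay near background in both channels.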

Other observations

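In the authors' deposited log2 ratios the sign of the hhf2-wt a column was opposite to the strain-over-reference ratio of its scanner file (r = -0.985), and so were those of L109A a (r = -0.982) and Q5A a (r = -0.984), whereas the other 19 columns correlated between 0.935 and 0.991. Saturated spots numbered 0 to 56 an array for the control strains, against 0 to 21 for the reference. The 2 spots of a probe differed by a median of 0.03 to 0.042 in log2 ratio on the hhf2-wt arrays.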
